A study of Mus musculus with 12 samples.

Results

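The response of T/F AML cells to the p300/CBP inhibitor CCS1477 was measured by RNA-seq in cells of 3 moribund mice. T/F stands for Tet2 fl/fl, Flt3 ITD/ITD, Mx1Cre: both Tet2 alleles carry loxP sites, both Flt3 alleles carry an internal tandem duplication, and Cre is driven by the interferon-inducible Mx1 promoter. No inducer of that promoter was given, so Tet2 loss relied on leaky Cre activity, and the share of cells that had lost both copies was not measured here. Splenocytes were enriched for c-Kit (CD117) with magnetic beads and cultured with SCF, IL6 and IL3. The cells of each mouse were divided between 2 μM CCS1477 and the solvent DMSO for 6 h, which gave 6 libraries in 3 pairs. The series holds 6 more libraries of the same design from 3 D/F mice (Dnmt3a fl/fl, Flt3 ITD/ITD, Mx1Cre), treated at 4 μM, and these were used only where the responses of the genotypes were compared. Genes were included when their T/F average reached 1 TPM with DMSO or with CCS1477, which held for 15256 of the 15651 genes listed. TPM is a transcript abundance corrected for length and set relative to all RNA in a library, so it does not show a change in total RNA per cell. In bulk RNA, fewer cells of a kind and less RNA per cell cannot be told apart.

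p300 (Ep300) and CBP (Crebbp) are a pair of related lysine acetyltransferases that are recruited by transcription factors to enhancers and promoters, where they acetylate histones, including lysine 27 of histone H3. Their bromodomains bind acetylated lysine, and CCS1477 occupies that pocket. In myeloid progenitors, enhancers of this kind serve growth genes such as Myc and lineage genes such as those of the granules, the growth factor receptors and the surface receptors of phagocytes. T/F AML cells are immature myeloid cells in which the mutant receptor Flt3 signals without its ligand.

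The cells carried the RNA of c-Kit-positive myeloid progenitors in all 6 libraries. With DMSO, Kit was at 55.5, 50.5 and 67.0 TPM in mice 1, 2 and 3, and Mpo, the myeloperoxidase of primary granules, was at 2150, 1879 and 1244 TPM. Several lymphoid markers, like Cd3e, Trac, Cd79a and Ms4a1, were not among the genes listed, and the 7 T cell markers tested summed to between 27.6 and 36.0 TPM with DMSO. The 6 tested B cell markers summed to 79.7 to 84.3 TPM. The 4 tested NK cell markers summed to 83.0 to 111 TPM, most of it Nkg7, which is also a primary granule gene on the lists. Tcrg-C1, a T cell receptor constant segment, was at 69.2, 44.2 and 130 TPM with DMSO. Markers of more mature myeloid cells were abundant with DMSO, with sums of 2488 to 7312 TPM for mature neutrophils and 678 to 883 TPM for monocytes and macrophages. The dendritic cell list summed to 356 to 894 TPM. On that list H2-Ab1, an MHC class II gene, alone averaged 398 TPM with DMSO, and Flt3 averaged 30.8 TPM. Erythroid markers summed to 333 to 356 TPM. Tet2 was at 30.0, 35.8 and 34.4 TPM with DMSO. A gene-level TPM takes in all exons, so this value does not show how much of the floxed allele was deleted. Libraries of the same treatment correlated at 0.977 to 0.990 across genes on the log2(TPM + 1) scale, and the 6 libraries summed to between 925204 and 931403 TPM, so the table lacks a small share of the RNA. The number of reads behind a value cannot be recovered from TPM, and the spread between 3 mice is the measure of error used.

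CCS1477 changed the RNA of a large share of genes within 6 h, and the deepest changes were falls. By limma's test on log2(TPM + 1) with the mouse as a block, 407 genes were called up (2.67% of those tested) and 790 were called down (5.18%), a call being a change above 2-fold at an adjusted p under 0.05. At that adjusted p with any size of change, 4760 genes were higher (31.2%) and 3489 were lower (22.9%), in all 8249 or 54.1%. Above 4-fold, 107 genes had fallen and 11 had risen. When the test asked for a change significantly above 2-fold, 31 genes were called up and 170 down. All 1197 called genes moved the same way in all 3 mice, against 75.2% of the genes tested. For 1135 of the called genes the 3 CCS1477 values did not overlap the 3 DMSO values. Both counts follow largely from the call, which favours genes whose mice agree. Over all genes tested, 5116 did not overlap and were higher (33.5%) and 3441 did not overlap and were lower (22.6%). The fold changes below are on the log2(TPM + 1) scale and understate the change of genes with low TPM.

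**Figure D1:**
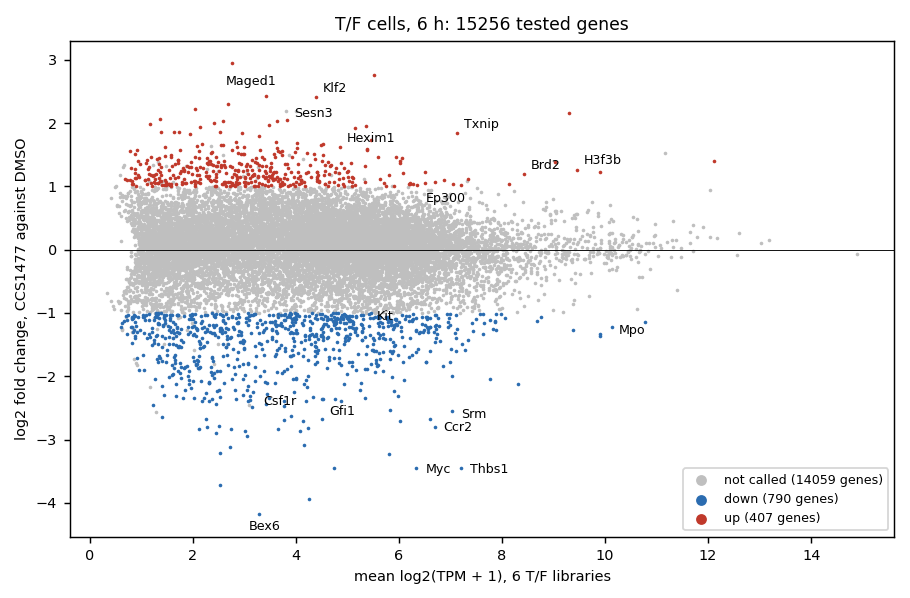
Log2 fold change (CCS1477 against DMSO, fitted over 3 T/F mice) of each of the 15256 tested genes against its mean log2(TPM + 1) over the 6 T/F libraries. Blue points are the 790 genes called down and red points the 407 called up; the falls reach further from 0 than the rises, and genes named in the text are labelled.

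Some genes entered only through one group. Of the genes tested, 14449 reached 1 TPM in both groups, 407 only with DMSO and 400 only with CCS1477. Among the genes called down, 666 reached 1 TPM in both groups and 124 only with DMSO. Among those called up, 338 reached it in both groups and 69 only with CCS1477. Genes called down were about as abundant as the rest before treatment, with a median of 22.5 TPM with DMSO against 18.0 TPM over all genes tested, whereas genes called up had a median of 4.25 TPM. Summed over the 790 genes called down, TPM went from 47072, 47710 and 49027 with DMSO to 17849, 18248 and 17594 with CCS1477 in mice 1, 2 and 3. Summed over the 407 genes called up, TPM went from 7321, 8829 and 9011 to 20815, 21860 and 22706. Both sums follow from how the genes were called and are given as a description of the size of the change.

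The drug's targets themselves were higher after treatment. Ep300 was at 58.1, 64.2 and 57.9 TPM with DMSO and at 104, 112 and 104 TPM with CCS1477, a log2 fold change of 0.81 (SE 0.05, adjusted p 0.00209). Crebbp went from 49.0, 51.1 and 50.7 TPM to 86.7, 88.5 and 91.4 TPM, also a change of 0.81 (SE 0.05, adjusted p 0.00216). The groups did not overlap for either gene, and neither reached the 2-fold limit. Among all genes, 31.2% were higher and 22.9% lower at an adjusted p under 0.05. Of 13 lysine acetyltransferases tested, 8 were higher and 1 was lower. The lower one was Kat2a, the catalytic subunit of SAGA, which fell from 62.3 ± 6.2 to 31.8 ± 3.2 TPM (SD, n = 3), while its paralog Kat2b rose from 27.9 ± 4.7 to 52.9 ± 5.7 TPM. Hat1, Kat7 and Kat8 did not pass, with log2 fold changes of 0.04, 0.07 and 0.20.

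Genes around the elongation factor P-TEFb, which releases paused RNA polymerase II, rose with them. Hexim1, which holds P-TEFb inactive, was at 15.6, 15.5 and 15.3 TPM with DMSO and at 51.9, 49.1 and 47.3 TPM with CCS1477 (log2 fold change 1.61, SE 0.05, adjusted p 0.00182). Brd2, a bromodomain protein of the BET family, went from 210, 236 and 234 TPM to 499, 547 and 508 TPM (1.19, SE 0.05, adjusted p 0.00182). Every CCS1477 value of both genes lay above every DMSO value. In the list of 14 BET and P-TEFb genes, 10 were higher and 1 was lower, against 31.2% higher and 22.9% lower among all genes. The kinase partners Ccnt1 and Ccnt2 did not pass, at -0.06 and 0.02.

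Myc, the growth regulator on mouse chromosome 15 (chr15:61985391-61990374, GRCm38), showed the largest fall among transcription factors on the lists. It was at 265, 230 and 311 TPM with DMSO and at 24.9, 19.3 and 27.1 TPM with CCS1477 (log2 fold change -3.45, SE 0.06, adjusted p 0.00182). The lowest DMSO value lay far above the highest CCS1477 value. Its relative Mycn fell from 13.3 ± 3.8 to 2.64 ± 0.80 TPM and its partner Max from 99.8 ± 3.4 to 62.5 ± 1.2 TPM (SD, n = 3). The Mxd proteins compete with Myc for Max, and of these Mxd4 rose from 10.1 ± 0.24 to 23.5 ± 1.9 TPM and Mxd3 from 13.6 ± 1.4 to 30.5 ± 2.9 TPM. Mxd1 and Mnt, others of that class, did not pass, at 0.07 and -0.21. In the list of 13 network genes as a whole, 5 were higher and 4 lower, against 31.2% higher and 22.9% lower among all genes.

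Transcription factors of stem and myeloid cells mostly fell. Of 30 myeloid factors tested, 16 were lower and 4 higher at an adjusted p under 0.05, and of 32 stem and progenitor factors 19 were lower and 6 higher, against 22.9% lower and 31.2% higher among all genes. Gfi1, a repressor needed for neutrophil development, fell furthest on these lists: it went from 60.4, 55.6 and 53.4 TPM to 9.67, 7.26 and 7.31 TPM (-2.67, SE 0.07, adjusted p 0.00182). Myb went from 247, 218 and 252 TPM to 82.2, 63.0 and 90.9 TPM (-1.61, SE 0.08, adjusted p 0.00185). The groups of both genes were far apart. Lmo2, a partner of stem cell factors, fell from 271 ± 38 to 89.6 ± 1.6 TPM, Etv6 from 125 ± 19 to 50.8 ± 8.9 TPM, and Cebpa, which directs granulocyte fate, from 112 ± 5.7 to 50.8 ± 3.8 TPM (SD, n = 3). Irf8, which directs monocyte and dendritic fate, fell from 91.3 ± 23 to 38.7 ± 5.3 TPM, and Klf4 from 20.7 ± 9.1 to 6.61 ± 2.0 TPM.

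Other lineage factors were lower by less or did not pass. Spi1, which encodes PU.1, fell by 0.42 on the log2 scale (SE 0.06, adjusted p 0.00771), from 156, 172 and 158 TPM to 118, 135 and 111 TPM. Hoxa9, Gata2 and Mecom did not pass, with log2 fold changes of 0.18, -0.05 and -0.16. Gata3, better known from T cells, rose from 2.18 ± 0.78 to 7.37 ± 2.0 TPM. Klf2, a factor of quiescent lymphocytes and endothelium, was the strongest riser among the 28 early response factors tested: it went from 9.29, 10.4 and 5.36 TPM to 50.6, 55.9 and 37.3 TPM (2.41, SE 0.08, adjusted p 0.00182). Its lowest CCS1477 value was above its highest DMSO value. In that list 7 genes were higher and 11 lower, against 31.2% higher and 22.9% lower among all genes. Fosl1 fell from 6.08 ± 0.68 to 0.972 ± 0.14 TPM, while Egr1 did not pass at 0.12.

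Receptors through which these cells receive growth signals were lower. Of 29 growth factor and cytokine receptors, 19 were lower and 6 higher, against 22.9% lower and 31.2% higher among all genes. Csf1r, the receptor for M-CSF, went from 27.8, 43.0 and 47.5 TPM to 5.11, 8.33 and 10.7 TPM (-2.18, SE 0.06, adjusted p 0.00182), and Csf3r, the receptor for G-CSF, from 49.8, 49.5 and 56.2 TPM to 19.0, 22.4 and 16.3 TPM (-1.39, SE 0.14, adjusted p 0.00416). Neither overlapped between treatments. Flt3 itself differed between mice with DMSO, at 18.2, 27.1 and 47.0 TPM, and it was lower with CCS1477 in each mouse, at 7.72, 10.2 and 19.3 TPM (-1.24, SE 0.06, adjusted p 0.00183). Because of those levels the treated cells of mouse 3 held more Flt3 RNA than the untreated cells of mouse 1, and without the mouse in the model Flt3 did not pass. Kit went from 55.5, 50.5 and 67.0 TPM to 24.8, 24.2 and 42.6 TPM (-0.93, SE 0.12, adjusted p 0.00658), short of the 2-fold limit. Of 20 stem and progenitor surface markers, 15 were lower and 2 higher; Cd93 fell from 51.4 ± 11 to 14.8 ± 2.7 TPM and Prom1 from 7.78 ± 4.2 to 1.02 ± 1.0 TPM (SD, n = 3).

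**Figure D2:**
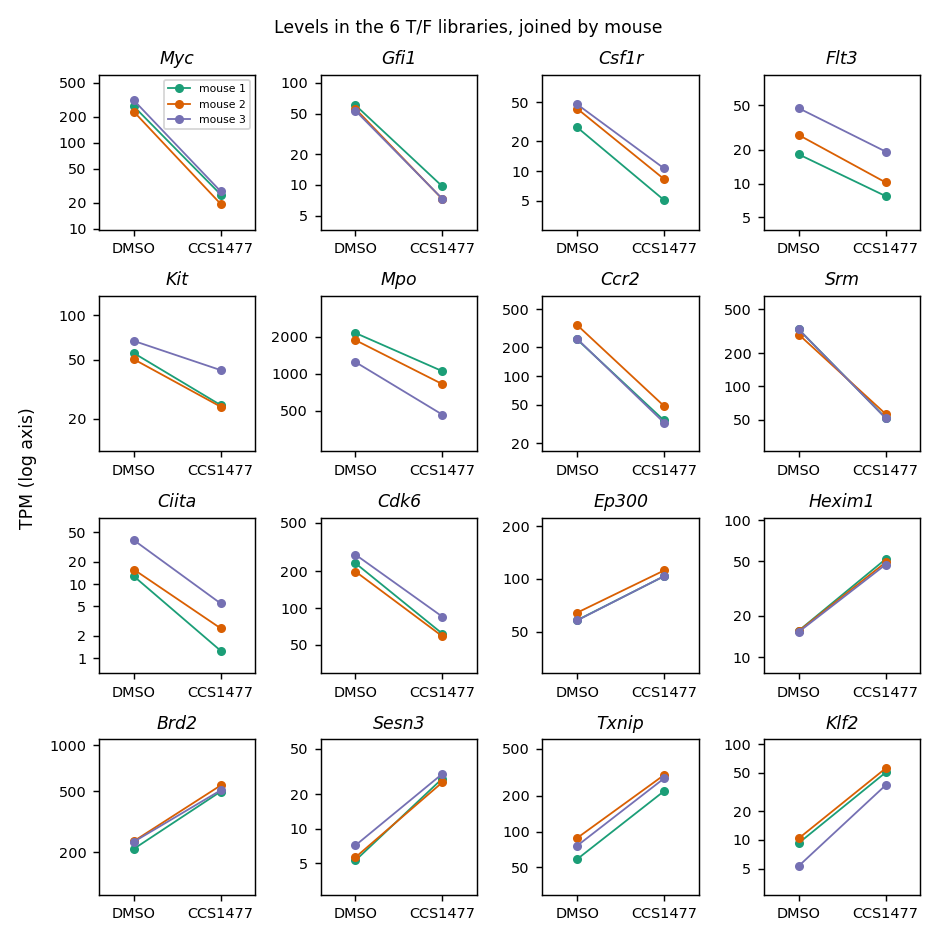
TPM (log axis) of 16 genes with DMSO and with CCS1477, with the 2 libraries of each T/F mouse joined by a line. Lines of a gene run nearly parallel, and for Flt3 the CCS1477 value of mouse 3 lies above the DMSO value of mouse 1.

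Genes of the primary granules, which are made at the promyelocyte stage, fell without exception on the list used. All 18 tested were lower at an adjusted p under 0.05 and 12 were called down, against 22.9% and 5.18% of all genes. Mpo went from 2150, 1879 and 1244 TPM to 1048, 822 and 463 TPM (-1.22, SE 0.09, adjusted p 0.0028), and Prtn3, which encodes proteinase 3, from 1801, 1674 and 1147 TPM to 768, 698 and 399 TPM (-1.34, SE 0.08, adjusted p 0.00222). The cathepsin gene Ctsg went from 1195, 1020 and 884 TPM to 540, 410 and 350 TPM (-1.26, SE 0.06, adjusted p 0.00185). In each of these genes the levels of mouse 3 were the lowest under both treatments, and the 2 treatments did not overlap. Deeper falls were seen in Prss57, a granule serine protease, from 36.7 ± 7.4 to 5.09 ± 1.2 TPM, and in Ms4a3, a marker of granulocyte and monocyte progenitors, from 667 ± 78 to 157 ± 44 TPM (SD, n = 3). The 18 genes together summed to 9813 to 13521 TPM with DMSO and to 4436 to 6669 TPM with CCS1477.

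The stretches before the start of 4 genes are shown, because a minority of the members of their lists, these 4 among them, hold a short word near the start. They were read from RefSeq promoter windows on GRCm38.p6, and each line gives the 250 bases before the start, 5′ to 3′ on the strand of the gene. Capitals mark GAGGAAGT, a word of the kind bound by PU.1, in the first 3 genes, which fell, and GTAAACA, a forkhead-type word, in Txnip, which rose.
Mpo (chr11:87793534-87793783, plus strand): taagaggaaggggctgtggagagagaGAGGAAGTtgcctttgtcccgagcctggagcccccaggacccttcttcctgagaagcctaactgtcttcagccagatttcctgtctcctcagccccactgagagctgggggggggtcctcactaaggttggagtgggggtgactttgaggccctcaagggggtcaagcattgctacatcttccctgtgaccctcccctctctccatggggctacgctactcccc
Elane (chr10:79886062-79886311, plus strand): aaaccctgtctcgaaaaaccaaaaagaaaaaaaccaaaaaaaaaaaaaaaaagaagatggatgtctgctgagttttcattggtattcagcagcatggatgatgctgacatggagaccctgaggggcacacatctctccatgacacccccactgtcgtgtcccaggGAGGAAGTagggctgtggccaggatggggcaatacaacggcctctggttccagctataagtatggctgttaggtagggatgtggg
Prtn3 (chr10:79879417-79879666, plus strand): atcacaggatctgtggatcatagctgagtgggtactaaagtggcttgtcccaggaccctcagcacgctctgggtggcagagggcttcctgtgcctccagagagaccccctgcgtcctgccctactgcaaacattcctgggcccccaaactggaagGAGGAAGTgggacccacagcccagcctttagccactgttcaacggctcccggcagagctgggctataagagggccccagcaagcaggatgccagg
Txnip (chr3:96557707-96557956, plus strand): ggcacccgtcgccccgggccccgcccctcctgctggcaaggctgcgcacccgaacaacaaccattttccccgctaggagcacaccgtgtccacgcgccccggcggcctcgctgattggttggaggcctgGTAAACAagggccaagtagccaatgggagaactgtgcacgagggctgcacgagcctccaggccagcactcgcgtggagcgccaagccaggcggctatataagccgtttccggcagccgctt
The word begins 224 bases before the start of Mpo, 85 before that of Elane, 95 before that of Prtn3 and 121 before that of Txnip. These starts are those of the RefSeq windows. In GENCODE, used for the other positions, Mpo begins at 87793581, inside the stretch shown. Both strands of whole 300-base windows were searched, with 1 window per gene, and 10444 of the tested genes had a window. GAGGAAGT was found in 4 of 15 primary granule genes with a window (26.7%; Mpo, Elane, Prtn3 and Ctsc), against 354 of the 10444 genes (3.39%). GTAAACA was found in 3 of 29 growth restraint genes described below (10.3%; Txnip, Sesn1 and Btg1), against 263 genes (2.52%), and Btg1 did not pass the test for CCS1477. CCAAT was found in 36 of 52 mitosis genes (69.2%), against 4098 genes (39.2%). A match is the presence of these letters, and binding was not measured.

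Secondary and tertiary granule genes, which are made later, mostly fell as well, with abundant exceptions. Of 25 tested, 18 were lower and 1 higher, against 22.9% lower and 31.2% higher among all genes. Of the 25, 9 were called down, against 5.18% of all genes, and the median log2 fold change was -0.78. Ltb4r1, the leukotriene B4 receptor, fell from 32.5 ± 11 to 7.35 ± 3.1 TPM and the collagenase gene Mmp8 from 116 ± 70 to 34.9 ± 18 TPM (SD, n = 3). The abundant transcripts Ltf, Cd177, S100a8 and S100a9 did not pass, with log2 fold changes of 0.12, -0.02, -0.11 and 0.10. For phagocyte oxidase genes, 5 of 9 were lower and 1 was higher, with Ncf4 falling from 321 ± 32 to 176 ± 17 TPM.

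Receptors by which myeloid cells find tissues and sense microbes gave some of the deepest falls. Of 28 integrins and homing receptors, 22 were lower and 2 higher, against 22.9% lower and 31.2% higher among all genes. Of the 28, 12 were called down, against 5.18% of all genes. The chemokine receptor Ccr2, which guides monocytes out of marrow, went from 241, 341 and 245 TPM to 34.5, 48.8 and 32.7 TPM (-2.81, SE 0.05, adjusted p 0.00182). The treatments were several-fold apart in each mouse. Cxcr4, the receptor that holds progenitors in marrow, changed little, from 176, 159 and 150 TPM to 144, 137 and 132 TPM (-0.23, SE 0.05, adjusted p 0.0267). Of 31 pattern recognition receptors and adaptors, 18 were lower and 4 higher: Tlr13, which senses bacterial ribosomal RNA, fell from 20.7 ± 0.56 to 2.06 ± 0.81 TPM, and the lectin receptor Clec12a, an AML surface antigen, from 167 ± 27 to 24.8 ± 5.6 TPM (SD, n = 3). Tlr4 did not pass at -0.08. Of 30 cytokine and chemokine genes, 21 were lower and 4 higher. Ccl9 fell from 130 ± 22 to 26.9 ± 3.5 TPM, and Ccl3 did not pass at 0.03.

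Falling genes lay next to each other more often than the overall share of falling genes. Of 663 genes called down whose next tested gene on the chromosome did not overlap them, 92 had a next gene that was also called down (13.9%), against 672 of 12396 over all tested genes (5.42%). For genes called up, 18 of 344 had a next gene called up (5.23%), against 342 of 12396 (2.76%). The longest unbroken run held 8 C-type lectin receptor genes on chromosome 6 (chr6:122921848-123289870, GRCm38), from Clec4a1 to Clec4e, with log2 fold changes between -1.49 and -2.35. The tested genes on either side, Gm5316 and Cd163, were at -0.29 and -0.22. With DMSO they were at only 1.04 and 1.05 TPM, where log2(TPM + 1) can show little fall. Next to them lay Necap1 at -0.26 and Pex5 at 0.31. Beyond Necap1, C3ar1 was called down at -1.73, so the run has no sharp edge on that side. Further runs held Fcgr2b, Fcgr4 and Fcgr3, the Trem receptors Trem1, Trem3, Treml4 and Treml2, and Ms4a6d, Ms4a2 and Ms4a3. Many of these neighbours are related copies, and reads that fit several copies could have been divided among them by the authors' quantification. The runs were looked for after the gene values had been seen, and no test was made of them.

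**Figure D3:**
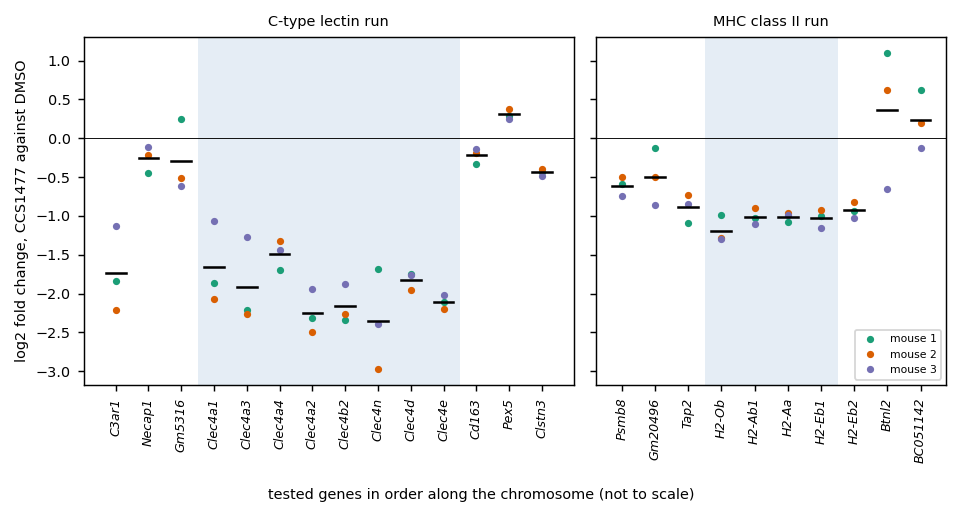
Log2 fold change (CCS1477 against DMSO) of 2 runs of neighbouring genes called down (shaded) with 3 tested genes on each side, in chromosome order and not to scale. Points are the 3 T/F mice and bars the fitted value. The shaded C-type lectin genes lie below -1 in all mice, the shaded MHC class II genes lie near -1, and the values of genes on either side are mixed. Next to the class II run, Tap2 (-0.89) and H2-Eb2 (-0.93) fell nearly as far and missed the 2-fold limit, so that run has no sharp edge.

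Among antigen presentation genes, those of MHC class II mostly fell. Ciita, the master activator of MHC class II genes, went from 12.7, 15.7 and 39.0 TPM to 1.26, 2.53 and 5.48 TPM (-2.49, SE 0.10, adjusted p 0.00182). Mouse 3 was highest under both treatments. Of 17 class II genes, 13 were lower and 2 higher, and the alpha chain H2-Aa went from 222, 271 and 625 TPM to 105, 138 and 313 TPM (-1.01, SE 0.05, adjusted p 0.00187), with groups that overlapped because of mouse 3. Of 21 class I genes tested, 8 were higher and 8 lower, against 31.2% higher and 22.9% lower among all genes. Nothing particular to class I is read from these counts. Nlrc5, the activator of class I genes, fell from 27.0 ± 7.3 to 12.4 ± 2.6 TPM, whereas the class I heavy chain H2-K1 rose from 391 ± 64 to 679 ± 121 TPM (SD, n = 3), and H2-K1 has close relatives that share its sequence. Of 48 interferon-stimulated genes, 13 were higher and 13 lower, which is also near the shares of all genes. Among them Ifitm3 fell from 373 ± 82 to 155 ± 42 TPM and Irf7 rose from 8.90 ± 3.3 to 19.0 ± 4.9 TPM.

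Genes that restrain growth formed the group with the most calls upward. Of 34 tested, 25 were higher and 4 lower, against 31.2% higher and 22.9% lower among all genes. Of the 34, 9 were called up, against 2.67% of all genes. Sesn3, a stress-induced inhibitor of mTORC1 signaling, went from 5.27, 5.62 and 7.15 TPM to 27.5, 25.5 and 30.2 TPM (2.04, SE 0.07, adjusted p 0.00182). Txnip, the thioredoxin-binding protein that limits glucose uptake, went from 58.3, 88.1 and 75.7 TPM to 219, 300.3 and 281 TPM (1.84, SE 0.06, adjusted p 0.00182). No CCS1477 value of these genes came near the DMSO range. The atypical cyclin Ccng2 rose from 17.6 ± 4.7 to 68.6 ± 7.7 TPM, the antiproliferative gene Tob1 from 8.23 ± 2.2 to 28.4 ± 3.5 TPM, and Cdkn2c, which encodes the Cdk4 and Cdk6 inhibitor p18, from 8.37 ± 1.5 to 27.3 ± 1.8 TPM (SD, n = 3). Pik3ip1, an inhibitor of PI3 kinase, went the other way, from 32.5 ± 2.2 to 12.5 ± 3.0 TPM. Btg1 and Irs2 did not pass, at 0.09 and 0.35.

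Cell cycle genes did not move as one. Cdk6, the G1 kinase, went from 232, 199 and 273 TPM to 61.7, 58.7 and 84.9 TPM (-1.77, SE 0.07, adjusted p 0.00182), and its partner cyclin gene Ccnd2 fell from 171 ± 18 to 63.9 ± 4.3 TPM and Ccnd1 from 9.52 ± 3.6 to 2.61 ± 0.71 TPM (SD, n = 3). E2f2 rose from 44.7 ± 12 to 104 ± 24 TPM. In the whole list of 21 G1 genes, 7 were higher and 7 lower. Among all genes 31.2% were higher and 22.9% lower, and nothing particular is read from the counts of G1 or DNA replication genes. Of 49 DNA replication genes, 11 were higher and 12 lower, with a median log2 fold change of 0.01, which was -0.07 when libraries were rescaled to a common median ratio, as rescaling lowered all list medians. Mitosis genes were higher: 52 of 61 passed upward and none downward, with a median of 0.46 against 0.07 over all genes tested. The changes were small for each gene, and Spc25, a kinetochore component, was the only one called, at 70.9 ± 6.6 against 149 ± 9.4 TPM. Mki67, the proliferation antigen, rose from 219 ± 28 to 414 ± 34 TPM, and Cdc20 and Aurkb did not pass at 0.11 and 0.20.

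Genes for making nucleotides and proteins had more members lower than the 22.9% of all genes. Srm, which makes spermidine, went from 328, 295 and 328 TPM to 51.9, 56.4 and 51.7 TPM (-2.55, SE 0.08, adjusted p 0.00182), the deepest fall among the metabolic lists. The polyamine list to which it belongs was divided, with 8 of 17 lower and 5 higher, among the latter Oaz2 and Sat1, which lower polyamine levels. Of 42 nucleotide and one-carbon genes, 29 were lower and 5 higher. Shmt1 fell from 114 ± 9.5 to 39.3 ± 0.56 TPM and Gart, a purine synthesis enzyme, from 159 ± 7.8 to 68.9 ± 0.62 TPM (SD, n = 3). Of 34 RNA polymerase I and III genes, 21 were lower and 6 higher, and the polymerase I subunits Polr1b and Polr1a fell from 82.0 ± 12 to 22.7 ± 2.4 TPM and from 49.3 ± 3.8 to 18.5 ± 1.4 TPM. Of 23 amino acid transporters, 15 were lower and 4 higher, and of 40 aminoacyl-tRNA synthetase genes 22 were lower and 3 higher. Translation factors had 32 of 52 lower and 3 higher, and chaperones 30 of 45 lower and 5 higher.

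The heaviest transcripts of these classes moved less than the list leaders. Hspa8, a constitutive chaperone, went from 3355, 3357 and 3356 TPM to 2093, 2197 and 2164 TPM (-0.64, SE 0.05, adjusted p 0.00273). Eef1a1, the elongation factor, was at 5653 ± 200 TPM with DMSO and 6768 ± 235 TPM with CCS1477 (0.26, SE 0.05, adjusted p 0.0155), its direction turned under quantile normalization, and it did not pass when any one mouse was left out. The cytosolic ribosomal protein genes stayed close to their level: 12 of 82 were lower and none higher, with a median of -0.08. Proteasome and oxidative phosphorylation genes had 28 of 43 and 61 of 82 members that did not pass.

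Lysosome and autophagy genes, histone genes and chromatin genes were higher more often than the 31.2% of all genes, and lower less often than 22.9%. Of 62 lysosome and autophagy genes, 35 were higher and 10 lower; the kinases that start autophagy, Ulk1 and Ulk2, rose from 14.1 ± 0.43 to 30.9 ± 0.28 TPM and from 14.3 ± 0.94 to 39.2 ± 4.0 TPM, and Map1lc3b from 14.1 ± 3.3 to 36.5 ± 2.1 TPM (SD, n = 3). Of 68 histone genes, 42 were higher and 1 lower. H3f3b, which encodes the replacement histone H3.3, went from 429, 480 and 449 TPM to 1084, 1096 and 1078 TPM (1.26, SE 0.06, adjusted p 0.00182). Hist2h2be, a clustered histone gene, rose from 5.13 ± 0.54 to 24.1 ± 2.4 TPM. Clustered histone genes have near-identical copies and RNA without a poly(A) tail, and the sample records name both ribosomal RNA depletion and an mRNA kit, so their levels are uncertain. Of 42 Polycomb and histone methylation genes, 27 were higher and 4 lower, led by Cbx2, from 6.61 ± 1.1 to 21.1 ± 2.3 TPM. Ftl1, the ferritin light chain, gave the largest difference in TPM of any gene with a symbol: it went from 3003, 3375 and 2673 TPM to 5450, 6535 and 5479 TPM (0.95, SE 0.06, adjusted p 0.00227).

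In several further pathways members passed in both directions, beside 31.2% of all genes upward and 22.9% downward. Some lists departed from these shares, the stress response list with more lower and the deacetylase list with more higher. The lists were not tested, and nothing particular to them is read from their counts. RAS-MAPK feedback genes had 6 of 21 higher and 9 lower, NF-kB subunits and feedback genes 4 of 21 higher and 5 lower, and JAK-STAT feedback genes 7 of 18 higher and 5 lower. Targets of p53 had 13 of 32 higher and 7 lower, antioxidant genes driven by NRF2 had 14 of 29 higher and 11 lower, and stress response genes of the unfolded protein and integrated pathways had 7 of 34 higher and 16 lower. Glycolysis genes (8 of 33 higher, 12 lower) and cholesterol genes (9 of 37 higher, 10 lower) also had both. Histone deacetylases and sirtuins, which remove the marks that acetyltransferases place, had 11 of 23 higher and 3 lower.

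**Figure D4:**
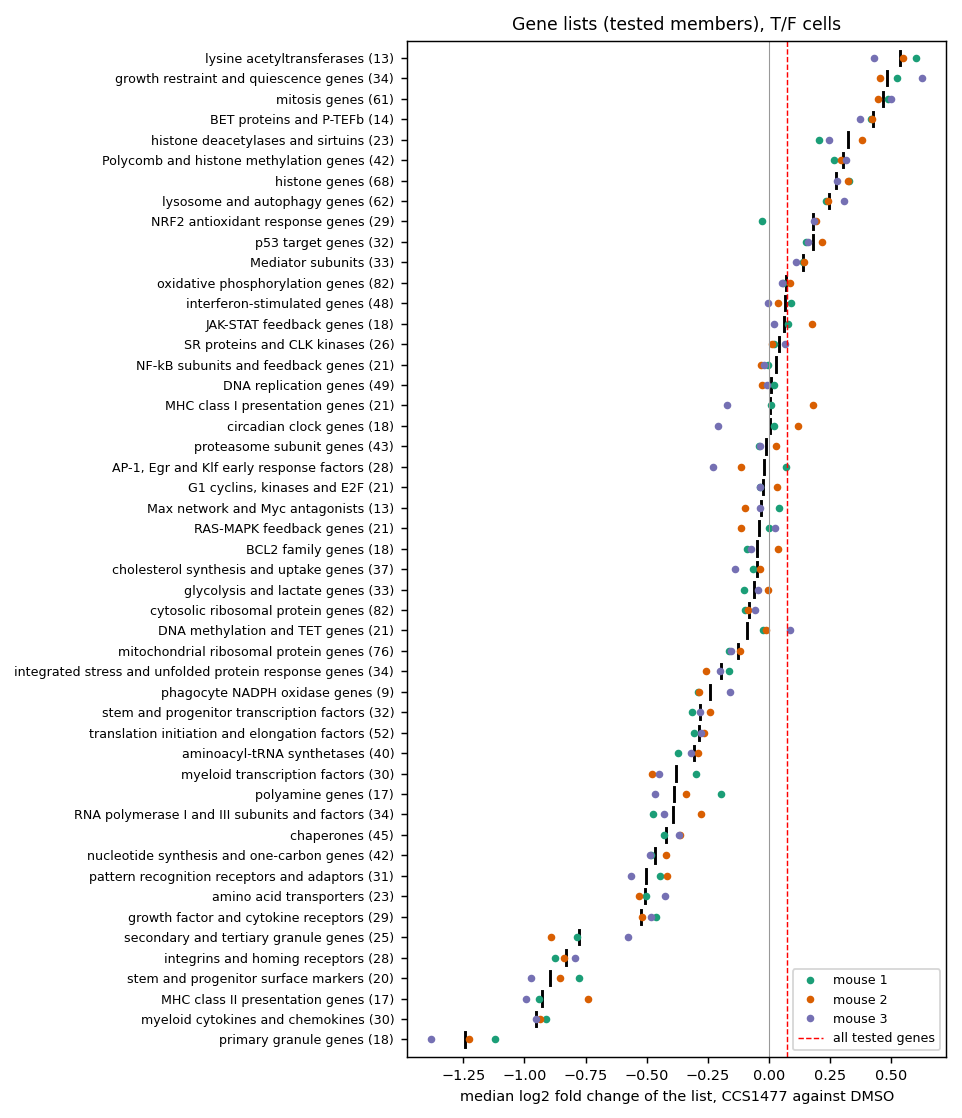
Median log2 fold change (CCS1477 against DMSO) of the tested members of 49 gene lists, with the number of members in brackets. Points are the medians within each T/F mouse, black bars the median of the fitted values and the dashed line the median of all 15256 tested genes; primary granule genes lie lowest and acetyltransferases and growth restraint genes highest.

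The 12 largest falls by log2 fold change, among called genes with a symbol and at least 5 TPM, were not confined to one class. Bex6 went from 43.9, 29.8 and 51.5 TPM to 1.17, 1.52 and 1.25 TPM (-4.18, SE 0.21, adjusted p 0.00185), and Thbs1, the matrix glycoprotein thrombospondin, from 495 ± 129 to 43.9 ± 8.0 TPM (SD, n = 3; -3.45, SE 0.08, adjusted p 0.00182). No CCS1477 value of either gene reached the DMSO range. Among the others were Myc, described above, and Tcrg-C1, Chdh, Rgcc, Muc13, Car12, Ffar2, Klrb1f and Gpr84, with changes between -2.90 and -3.94. Ffar2 and Gpr84 are receptors for fatty acids on myeloid cells, and Chdh is choline dehydrogenase. Tcrg-C1 is a T cell receptor constant segment with related copies.

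Most of the 12 largest rises were of protein-coding genes. Maged1 went from 3.46, 3.94 and 3.44 TPM to 23.2, 27.5 and 20.9 TPM (2.42, SE 0.07, adjusted p 0.00182), Myo6, a motor protein, from 0.766, 0.809 and 1.21 TPM to 6.64, 8.93 and 8.57 TPM (2.23, SE 0.09, adjusted p 0.00182), and Itsn1, an endocytic scaffold, from 17.0, 24.3 and 18.7 TPM to 76.3, 86.3 and 76.4 TPM (1.95, SE 0.08, adjusted p 0.00182). None of them overlapped between treatments. The largest fold change belonged to Ighj2, an immunoglobulin joining segment, at 11.5, 21.7 and 18.4 TPM against 147, 91.4 and 125 TPM (2.76, SE 0.32, adjusted p 0.00573). It did not pass when all 12 libraries of the series were fitted together. Ighm, the immunoglobulin mu chain, went from 34.5, 33.1 and 41.7 TPM to 93.1, 95.4 and 118 TPM (1.46, SE 0.05, adjusted p 0.00182), while Cd79b fell and Pax5 and Igkc did not pass, at -0.68 and -0.58. Others were Klf2, Sesn3, Hist2h2be, Cep170b and the pseudogenes Gm13787, H2-T-ps and Gm17538, whose reads may come from related genes; Gm13787 and Cep170b lost their calls without mouse 2 or without mouse 3.

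Several lists of markers of other blood cells moved as well. Among all genes 22.9% were lower and 31.2% higher, and nothing particular is read from the counts of the T cell, B cell and stroma lists. Of 15 tested monocyte and macrophage markers 12 were lower and none higher, and their summed level went from between 678 and 883 TPM with DMSO to between 246 and 345 TPM with CCS1477. The 4 tested NK cell markers (Klrd1, Gzmb, Nkg7 and Klrk1) were all lower, from sums of 83.0 to 111 TPM to sums of 16.7 to 25.7 TPM, most of it Nkg7, which the primary granule list also holds; Ncr1, Prf1 and Gzma were not among the genes listed. Of 10 tested dendritic cell markers 8 were lower. The summed T cell markers went from between 27.6 and 36.0 TPM to between 22.3 and 30.7 TPM and were lower in each mouse, and 2 of 7 passed downward. The sum of the 6 tested B cell markers was higher in each mouse, from between 79.7 and 84.3 TPM to between 117 and 156 TPM, with Ighm the only one to pass upward and 2 passing downward. Of 12 mature neutrophil markers 8 were lower and 1 higher, while their sum went from 7312, 5831 and 2488 TPM to 6981, 5266 and 2578 TPM. Of the erythroid, eosinophil and stroma lists, 5 of 11, 7 of 7 and 1 of 4 tested markers were lower and none higher, while 5 of 7 mast cell and 6 of 8 megakaryocyte markers were lower with 1 higher in each. The markers of the leukemic progenitors themselves had 13 of 15 lower and 1 higher. The part of other cells in the falls was not tested.

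The T/F leukemias also differed from one another in some genes. In the same model, 140 genes differed between mice at an adjusted p under 0.05 (0.918%), and 101 of them were highest in mouse 3. Fscn1, an actin-bundling protein of mature dendritic cells, was at 23.7, 126 and 195 TPM with DMSO and at 12.2, 70.6 and 120 TPM with CCS1477 in mice 1, 2 and 3. Ramp3 was at 3.29, 16.0 and 22.5 TPM with DMSO and 3.33, 18.0 and 22.7 TPM with CCS1477. The mice differed several times over in these genes, while treatment changed them by less than 2-fold. Adam23, Il4i1 and Cacnb3 were the others among the 5 with the highest statistic. Cd177, a neutrophil surface protein, showed the opposite order, at 51.5, 37.6 and 12.3 TPM with DMSO and 50.4, 36.6 and 12.2 TPM with CCS1477. Summed dendritic cell markers were at 356, 436 and 894 TPM and summed mature neutrophil markers at 7312, 5831 and 2488 TPM with DMSO in mice 1, 2 and 3. The dendritic sum includes Flt3 and the MHC class II gene H2-Ab1, which averaged 398 TPM with DMSO. The count of 140 moved between 0 and 778 with the settings and fell to 0 whenever one mouse was left out.

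**Figure D5:**
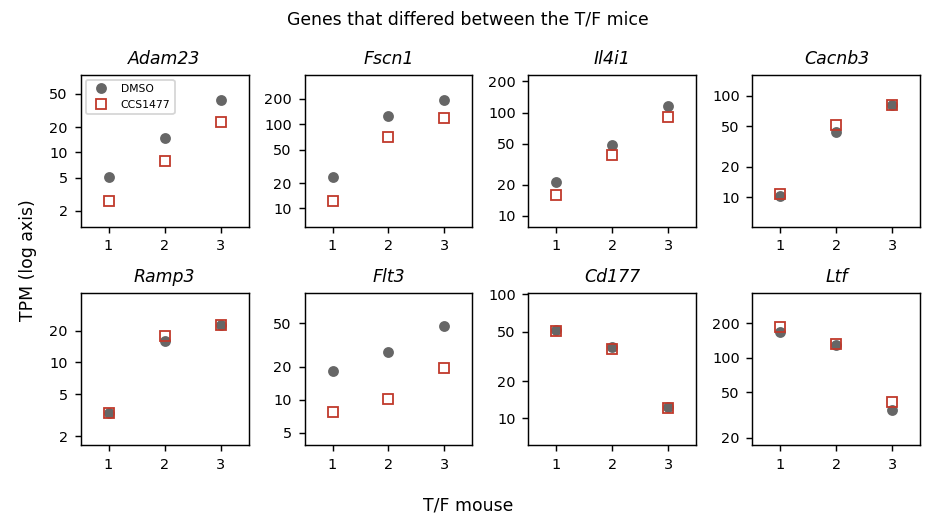
TPM (log axis) in mice 1, 2 and 3 with DMSO (filled circles) and CCS1477 (open squares) for 8 genes: the 5 with the highest statistic for a difference between mice, Flt3, Cd177 and Ltf. In Fscn1 and Cd177 the mice lie several-fold apart, and the treatments of a mouse lie close together in all genes but Flt3 and, less so, Adam23 and Fscn1.

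The change by CCS1477 was alike between the mice. Across the tested genes, the log2 fold changes of 2 mice correlated at 0.769 to 0.827. Of the 1197 called genes, 765 changed above 2-fold in their direction in each mouse on its own, and 902 kept their call whichever mouse was left out. The call itself favours genes whose 3 mice agree, so these 2 counts are descriptions and no separate evidence of agreement. The genes that varied most were at low or unsteady levels: S100a13 went from 0.0302, 16.4 and 18.8 TPM to 11.4, 0.0441 and 0.0229 TPM, rising in mouse 1 and falling in the other two. Smt3h2-ps4, Gm6851, Gm12112 and Gm11034, of which the first 3 are pseudogenes, and the joining segment Igkj3 were the others with the widest spread of fold changes between mice, each being listed at 0 in at least 1 library.

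The D/F cells gave no gene with a response that differed at an adjusted p under 0.05. In limma's fit of all 12 libraries with the mouse as a block, 0 of 15583 genes passed (0%), the lowest adjusted p was 0.163, and 2293 genes had an unadjusted p under 0.05. This does not show that the responses were equal. Tfec, for example, differed by 1.34 on the log2 scale and did not pass (limma, p 0.000125, adjusted p 0.163). Since the dose was 2 μM in T/F cells and 4 μM in D/F cells, genotype and dose cannot be told apart here. The genes with the smallest p were Gm10612, Hgf, Myo7a, Nrros, Gm20519 and Plcb2. Hgf, the hepatocyte growth factor, had log2 fold changes of -0.26 in T/F and -1.50 in D/F cells, Nrros, a regulator of phagocyte oxidase, -1.57 and -2.34, and Plcb2, a phospholipase, -1.12 and -1.99. In each of these 3 the fall was smaller in T/F cells. Of the 1197 genes called in T/F cells, 310 had an unadjusted p under 0.05 for the difference (25.9%), against 14.7% of all genes, and the median log2 fold change of the genes called down was -1.32 in T/F and -1.56 in D/F cells. These genes were chosen by their T/F values, so both are descriptions.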

How the data were processed

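The series holds 12 RNA-seq libraries, of which the 6 from T/F cells were analysed here and the 6 from D/F cells entered 1 comparison. According to the sample records, RNA with an integrity number above 8 was made into stranded, paired-end libraries. The authors quantified the reads with kallisto (version not given) against mm10, per the labels' processing notes, and processed them in AltAnalyze, and they deposited gene-level TPM values on a linear scale. The annotation and the settings are not given in the sources used here. Each listed gene reaches at least 2.00 TPM in a library, and genes below that were not analysed here. TPM keeps no read counts, so depth is unknown and no model of counts was fitted.

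Symbols and positions were taken from GENCODE vM21 on GRCm38, which names 15257 of 15651 identifiers, and 27 of the called genes had no symbol. The log2(TPM + 1) values were tested in limma 3.58.1 (R 4.3.3), restricted to genes averaging 1 TPM or more in a T/F group. The mouse was a block, variances were moderated with no trend, and p-values were two-sided and adjusted by Benjamini-Hochberg across every gene tested. Single genes have no useful exact test here: the smallest p that exact permutation can give is 0.25 for 3 pairs and 0.1 for 3 samples against 3. The libraries of a mouse come from the same animal by the sample records. Across genes, their deviations from the group means correlated at 0.377, 0.348 and 0.488, against -0.362 to -0.0452 between mice. Deviations within a group cancel out, so positive values within a mouse by themselves make those between mice negative. The latter are no separate evidence of the pairing. The mice are separate animals.

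Genes were named by rule: the 12 largest falls and rises among called genes with a symbol, 1 direction in 3 mice and at least 5 TPM; up to 5 passing members of each of 61 gene lists at that level, with members needed to say what did not pass; 8 genes of the study's design; and the leaders of the genotype, mouse, variation and TPM comparisons. Cxcr4, Elane, Ctsc, H2-Aa, Pik3ip1, Sesn1, Spi1 and the genes of chromosomal runs and their flanks fall outside that rule and were chosen after their values were seen. Some items are not reported here. The members and lists were chosen with earlier results of these data known. On simulated data, the paired fit recovered 88% of 50 genes changed by 1.5 on the log2 scale and 100% of those changed by 3, with 6 false calls over 14871 genes, and the test between genotypes recovered 84% and 98%, with 8 false calls over 15512 genes. The simulated spread was drawn from the fitted model and no planted change was below 1.5. These rates therefore check the code and do not give the power of the test between genotypes on the measured data. Alternatives changed the pseudocount (0.1), the filter (5 TPM, or none) and the block (left out), and used rescaling, quantile normalization, a trend, a fit of all 12 libraries, other limits, and leaving out each mouse; those for the difference between mice were added after seeing the data.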

Additional observations from a re-analysis of the deposited data

Results flagged for a closer look

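Rpl34, a ribosomal protein gene, fell in all 3 T/F mice and was higher in all 3 D/F mice, with log2 fold changes of -0.79 and 0.11, a difference of -0.89 (limma, p 0.000207, adjusted p 0.17). Ramp3 was higher in all 3 T/F mice and lower in all 3 D/F mice, with changes of 0.06 and -0.90, a difference of 0.96 (p 0.0563, adjusted p 0.355), and neither the T/F change nor the difference passed after adjustment.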

How the results depend on the processing

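The counts of called genes stayed within 1.5 times of 1197 (407 up, 790 down) except under these settings. With a pseudocount of 0.1, 651 genes were called up. A 1.5-fold limit gave 3469 genes (1711 up, 1758 down), any fold change at an adjusted p under 0.05 gave 8249 (4760 up, 3489 down), and a test against a 2-fold null gave 201 (31 up, 170 down). Without the mouse as a block, the unpaired fit called 1118 genes (401 up, 717 down), and 1113 of these were called with the block. Leaving out one mouse gave 1178 to 1235 genes, 396 to 430 up and 760 to 839 down. Rescaling to a common median ratio gave 314 up and 903 down. The difference between genotypes gave 0 genes under all 13 alternatives.

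The number of genes that differed between mice was 140, 44 with a pseudocount of 0.1, 473 with a filter at 5 TPM, 91 with no filter, 90 with quantile normalization, 778 with a trend, and 0 without any one of the mice.

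Of the named genes' values under alternatives, 3373 kept their direction and their side of the threshold, 120 no longer passed, 6 newly passed and 9 turned. Without the block, 39 named genes no longer passed, among them Flt3, Il1b, H2-Ab1 and H2-Eb1. Those that turned were Smt3h2-ps4 (-3.43 to 0.54 when one mouse was left out), Gm6851 (0.81 with a pseudocount of 0.1, -1.29 to 1.11 when one was left out), Gm11034 (-0.032 rescaled, -0.014 with quantile normalization and -1.22 to 1.12 when one was left out), Eef1a1 (-0.084 with quantile normalization) and Ramp3 (-0.011 rescaled); apart from Eef1a1 none had passed. The cause was not tested. Tet2 no longer passed without any one of the mice. Nor did Eef1a1. Of the list medians under alternatives, 588 moved by less than their spread over mice and 83 by more, 36 of these under rescaling and 15 under quantile normalization. Rescaling shifted the 61 medians by -0.081 to -0.029 and turned the sign of 8 near 0, and quantile normalization shifted them by -0.091 to 0.10 and turned 5. Precision is limited by 3 mice, and low TPM values, whose depth is unknown, vary most.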
